A study of Mus musculus with 11 samples.

Results

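The comparison described here is CD45.1 TAµ against CD45.2 µ, 2 populations of myeloid cells sorted from mouse brain after transplantation of blood-forming cells. Its members are the libraries labelled CD45.1 TAµ (3, by the IV, ITL and ICV routes) and CD45.2 µ (3, by the same routes), 6 of the 11 libraries of the series, and all genes were used. IV stands for intravenous delivery, ICV for delivery into the cerebral ventricles and ITL for delivery into the lumbar intrathecal space. CD45.1 and CD45.2 are alleles of Ptprc, the gene of the leukocyte surface protein CD45, which are used to tell donor from host blood cells.

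The labels name every library a sample of microglia-like cells from brain. The genotype given is CD45.1 for all TAµ libraries and CD45.2 for the µ libraries compared with them. Levels from 5 further libraries are set beside these where stated: CD45.1 µ by each route, ICV CD45.2 PBS and CTR µ, a control with no route and no allele label. Neither TAµ nor PBS is expanded in the labels, and the host allele, the strain, age and sex of the mice, the conditioning and the number of mice behind a library are not stated in the labels. Each population and route had 1 library. The p-values therefore measure how unevenly the differences between populations ran across routes, and not the spread between animals.

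Microglia are the resident macrophages of the brain parenchyma. They arise before birth from the yolk sac and keep a homeostatic programme of genes, held in part by the transcription factor SALL1, for sensing purines, lipids and damaged synapses. Macrophages that enter the brain from transplanted blood-forming cells take up many microglial traits but are known to express Sall1 and other identity genes poorly, and to express Apoe, Ms4a7 and antigen presentation genes more strongly. Border-associated macrophages of the meninges, perivascular spaces and choroid plexus are another brain population, known for the mannose receptor gene Mrc1.

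Total counts of the 6 libraries ran from 6090589 (ITL CD45.2 µ) to 21282823 (ICV CD45.2 µ), and genes with a count from 10477 (IV CD45.2 µ) to 15492 (IV CD45.1 TAµ). Levels are in CPM, that is counts relative to the library total after correction for composition. IV CD45.2 µ stood apart: its log2 CPM correlated with those of the other 5 libraries at 0.665 to 0.722 across genes, and the SD of the log2 difference between populations was 2.0 by IV against 0.856 by ITL and 0.871 by ICV, over 8799 genes with a mean of at least 3 log2 CPM. Without it 26 genes passed, and 25 of the 46 described next were lost.

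Of 13339 genes tested, 46 (0.345%) passed edgeR's quasi-likelihood test at a Benjamini-Hochberg adjusted p under 0.05. In CD45.1 TAµ 36 of them fell (0.27% of genes tested) and 10 rose (0.075%). All 46 differed in the same direction by each of the 3 routes, against 28.5% of all genes tested. In 44 of them the 3 libraries of one population did not overlap the 3 of the other, where 730 genes (5.47%) did not overlap and were lower in TAµ and 860 (6.45%) did not overlap and were higher. Xist and Y-linked genes made up 5 of the 46, and 1 was an unnamed predicted gene. Without adjustment, 409 genes were higher and 492 lower at a p under 0.05.

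**Figure D1:**
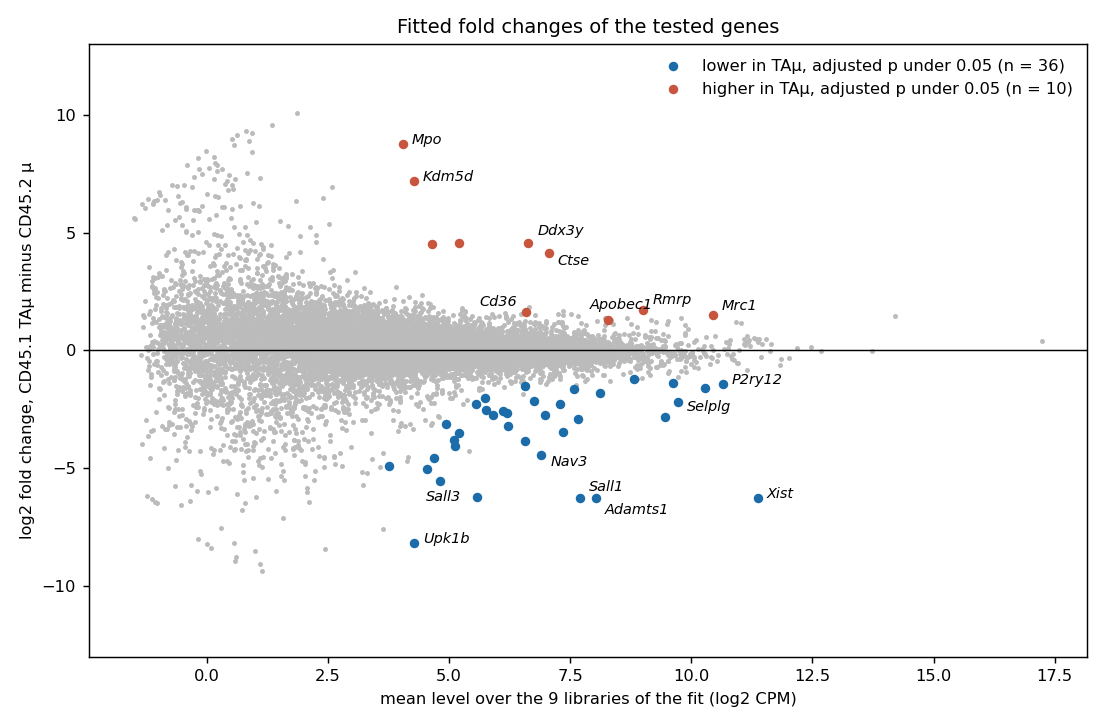
Fitted log2 fold change (CD45.1 TAµ minus CD45.2 µ, vertical axis) against the mean level over the 9 libraries of the fit (log2 CPM, horizontal axis), 1 point per tested gene. Blue points mark the 36 genes that passed and were lower in TAµ, red points the 10 that were higher, and a horizontal line marks no difference; all coloured points lie at a mean of 3 log2 CPM or more.

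Promoters of a gene that fell and of one that rose are shown because both belong to cell-identity lists and hold the same short ETS-type core, the class of site bound by the macrophage factor PU.1. The letters AGGAAGT were searched on both strands of the 250 bases before each RefSeq start (GRCm38.p6). These letters occurred in 9.1% of the 10044 tested genes that had a promoter entry, in 3 of the 23 with an entry among the 36 lower in TAµ (P2ry12, Sall1 and Gpr84) and in 2 of the 8 among the 10 higher (Mrc1 and Mpo). A gene with several RefSeq starts counted where any of them held the letters, and for Sall1 not all of them did. A match is a description of letters and not of a bound site. Capitals mark the match. The P2ry12 sequence is chr3:59262986-59263235, minus strand, with the letters as searched. That of Mrc1 is chr2:14229164-14229413, plus strand, with their reverse complement. The bases that follow the Mrc1 sequence were found near the start of a transcript of the gene in GENCODE, another gene annotation. Those that follow the P2ry12 sequence were not found near the start of any of its GENCODE transcripts.
P2ry12: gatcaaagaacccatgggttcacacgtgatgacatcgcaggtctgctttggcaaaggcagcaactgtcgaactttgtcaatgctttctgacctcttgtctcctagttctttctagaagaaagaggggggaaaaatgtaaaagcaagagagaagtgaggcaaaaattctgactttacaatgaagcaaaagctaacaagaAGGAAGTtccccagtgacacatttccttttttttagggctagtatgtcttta
Mrc1: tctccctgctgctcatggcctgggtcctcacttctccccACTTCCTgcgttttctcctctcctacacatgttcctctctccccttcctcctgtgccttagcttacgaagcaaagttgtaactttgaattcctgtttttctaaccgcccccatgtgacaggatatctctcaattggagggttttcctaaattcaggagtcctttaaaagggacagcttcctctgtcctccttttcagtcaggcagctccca

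The 2 genes of the SALL family that mark microglia fell to a few CPM in CD45.1 TAµ. Sall1, the zinc-finger factor that holds microglial identity, had 2.11, 8.57 and 7.35 CPM in TAµ by IV, ITL and ICV, and 483, 645 and 187 CPM in CD45.2 µ. The lowest CD45.2 µ library, ICV, was still far above every TAµ library. The log2 fold change was -6.27 ± 0.49 (SE), from 439 ± 232 to 6.01 ± 3.43 CPM (SD, n = 3; edgeR adjusted p = 3.6e-06). Sall3, its relative, had 0.702, 2.03 and 1.15 CPM in TAµ and 82.2, 183 and 30.9 CPM in CD45.2 µ, a log2 fold change of -6.22 ± 0.70 (adjusted p = 0.000107). In CD45.1 µ, Sall1 was at 80.0, 348 and 109 CPM. PBS held 85.4 CPM and CTR 1066 CPM. Every TAµ library was below all 5 of these.

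Other transcription factors of microglia and macrophages mostly did not pass. Of 20 tested genes on that list 3 fell and 0 rose, against 0.27% and 0.075% of all genes tested. Those that fell were Sall1, Sall3 and Egr1, an immediate-early factor. The median log2 fold change of the list was -0.10, beside 0.10 over all genes tested. Spi1, which encodes PU.1, had 177, 188 and 165 CPM in TAµ and 182, 186 and 178 CPM in CD45.2 µ, at a log2 fold change of -0.04 ± 0.23. Irf8, its partner in myeloid development, was at 0.02 ± 0.23. Smad3, a mediator of TGF-beta signals in microglia, was at -0.82 ± 0.28 and did not pass (edgeR adjusted p = 0.405), although its libraries did not overlap. Among 26 TGF-beta signalling genes 0 passed edgeR's test, DESeq2 or limma-voom, and the median log2 fold change was -0.13. Without adjustment, 1 of the 26 was higher and 3 lower at a p under 0.05, against 409 and 492 of all 13339 genes tested.

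Of 29 tested homeostatic microglia genes, which define the resting adult state, 10 fell in CD45.1 TAµ and 0 rose, against 0.27% of all genes that fell. At an unadjusted p under 0.05, 21 were lower and 0 higher, and DESeq2 called 12 and limma-voom 11. Of all 13339 genes tested 492 were lower without adjustment, and DESeq2 and limma-voom called 195 and 73. Fitted values were negative for 27 of 29, with a median log2 fold change of -0.78, against 5747 of all genes. In 16 of 29 the libraries did not overlap and were lower in TAµ, against 5.47% of all genes. By route the median log2 difference was -1.29 (IV), -1.24 (ITL) and -0.30 (ICV). The summed level of the list was 17015, 22866 and 27333 CPM in TAµ and 34063, 36019 and 26920 CPM in CD45.2 µ, so the sums of the ICV libraries were close. CTR had 62799 CPM. Of the 29, 2 passed without IV CD45.1 TAµ, with a median log2 fold change of -0.75. Leaving out IV CD45.2 µ, ITL CD45.1 TAµ or ICV CD45.1 µ gave 6 each, with medians of -0.65, -0.63 and -0.79.

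Cell-surface genes of this list fell by a wide range of sizes. P2ry12, the ADP receptor that guides microglial processes, had 672, 825 and 1094 CPM in TAµ and 2655, 3146 and 1429 CPM in CD45.2 µ. All 3 TAµ libraries were lower, with the smallest gap by ICV, and the log2 fold change was -1.44 ± 0.29 (edgeR adjusted p = 0.0427). It was -1.07 without IV CD45.2 µ and did not pass (adjusted p = 0.556). Selplg, the P-selectin ligand gene, had 251, 266 and 329 CPM against 1510, 2018 and 797 CPM (-2.20 ± 0.30; adjusted p = 0.00197). Slc2a5, the fructose transporter gene, had 8.04, 7.89 and 20.1 CPM against 250.2, 251 and 74.3 CPM (-3.83 ± 0.53; adjusted p = 0.00197). Both genes were higher in each CD45.2 µ library than in any TAµ library. Ecscr, an endothelial and microglial surface protein gene, had 3.45, 6.88 and 1.34 CPM against 76.2, 91.6 and 30.2 CPM (-4.08 ± 0.59; adjusted p = 0.00218).

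Nav3, a neuron navigator gene that microglia express, had 6.96, 8.34 and 17.2 CPM in TAµ and 339.5, 282 and 103 CPM in CD45.2 µ, a log2 fold change of -4.45 ± 0.52 (edgeR adjusted p = 0.000435). Adgrg1 (adhesion receptor GPR56), Sparc (a matrix protein) and Serpine2 (a protease inhibitor) had log2 fold changes of -2.90, -2.84 and -2.76 and passed. Without IV CD45.2 µ the values were -2.32, -2.11 and -1.93 and none of these 3 passed (adjusted p = 0.109, 0.109 and 0.128). These 3 list members were chosen for naming after their values were seen. In each the TAµ to CD45.2 µ gap was smallest by ICV, as for Sparc with log2 differences of -4.50 (IV), -3.36 (ITL) and -0.80 (ICV).

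**Figure D2:**
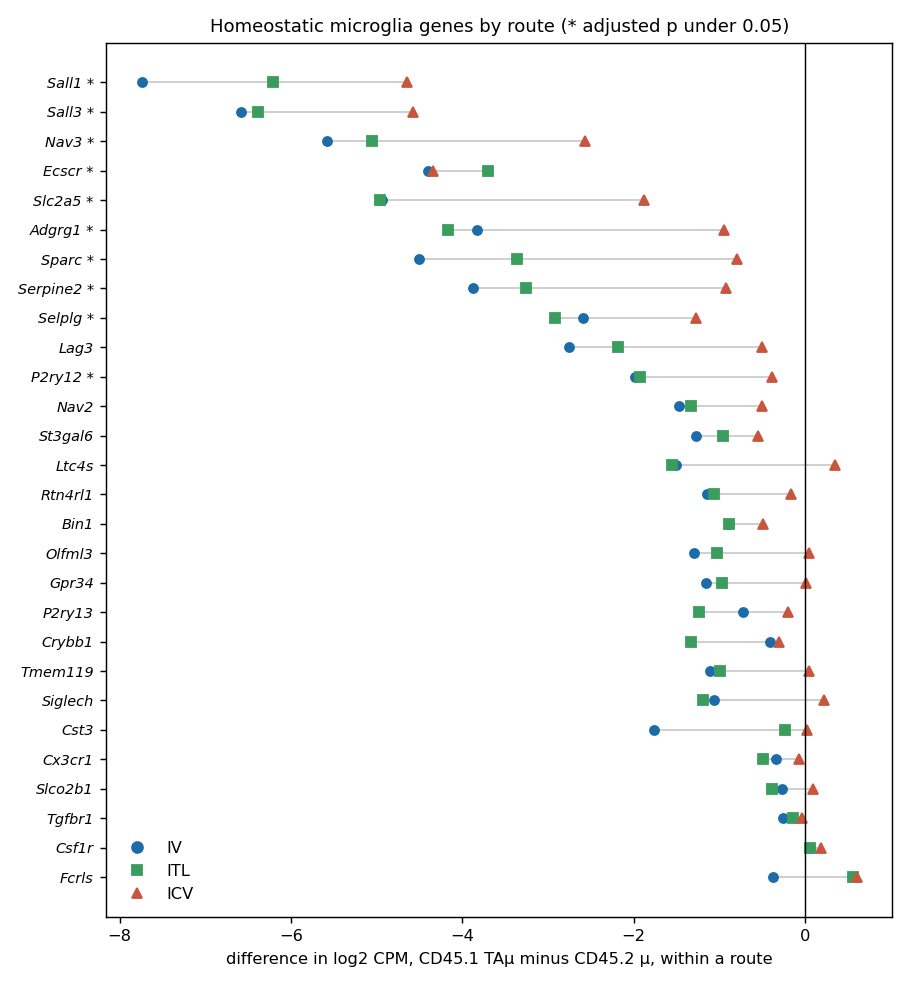
Difference in log2 CPM (CD45.1 TAµ minus CD45.2 µ, horizontal axis) for 28 of the 29 tested homeostatic microglia genes, ordered by fitted fold change, with 1 point per route joined by a grey line. Asterisks mark the 10 genes with an adjusted p under 0.05. Of these 10, Sall1 and Sall3 had the most negative fitted fold changes and lie nearest the top. For most genes the ICV triangle lies nearest to 0.

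Other defining microglial genes did not pass. Tmem119, a microglial surface marker, had 313, 448 and 589 CPM in TAµ and 673, 892 and 569 CPM in CD45.2 µ (log2 fold change -0.66 ± 0.25; edgeR adjusted p = 0.539). The ICV pair was level and the other pairs were lower in TAµ. The fractalkine receptor gene Cx3cr1 was at -0.29 ± 0.20 and the CSF1 receptor gene Csf1r at 0.10 ± 0.21. Each of these 3 genes was detected in every library of both populations, at 313 CPM of Tmem119 or more. Other markers on the homeostatic list were nearly absent from TAµ, with Sall1 at 8.57 CPM or less and Sall3 at 2.03 CPM or less. The 3 genes alone therefore do not settle the identity of the TAµ cells. Itgam, which encodes CD11b, had 731, 791 and 802 CPM against 1599, 1312 and 989 CPM (-0.72 ± 0.22; adjusted p = 0.263). Ptprc was at 0.43 ± 0.23 and did not pass (adjusted p = 0.801).

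Genes outside the lists made up many of the 36 that fell. Adamts1, a secreted metalloprotease of the extracellular matrix, had 2.62, 2.93 and 14.5 CPM in TAµ and 1169, 684 and 91.3 CPM in CD45.2 µ, a log2 fold change of -6.27 ± 0.76 (edgeR adjusted p = 0.000481). Its level in CD45.2 µ varied widely between routes, and every TAµ library was below the lowest of them. Upk1b, a tetraspanin of the uroplakin family, had 4, 2 and 0 counts in TAµ and 84.3, 41.0 and 13.7 CPM in CD45.2 µ (adjusted p = 0.00743, and 0.128 without IV CD45.2 µ). Sgce, a sarcoglycan gene, had 1.34, 2.37 and 0 CPM against 48.4, 67.5 and 11.5 CPM (-5.05 ± 0.76; adjusted p = 0.00218).

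Atp8a2, a phospholipid flippase gene, fell by 5.55 on the log2 scale, Magi1, a junctional scaffold gene, by 4.91, and Mlph, which links melanosomes to myosin, by 4.56. Itgb3, the integrin beta-3 gene, had 5.11, 8.0 and 3.34 CPM in TAµ and 124, 86.2 and 21.6 CPM in CD45.2 µ (log2 fold change -3.81 ± 0.56; edgeR adjusted p = 0.00218). It and Selplg were the only 2 of 23 tested adhesion and integrin genes that passed edgeR's test. Without adjustment, 6 of the 23 were lower and 3 higher at a p under 0.05, against 492 and 409 of all 13339 genes tested. DESeq2 called 6 of the 23 and limma-voom 2, where they called 195 and 73 of all genes. Ptprm, a receptor phosphatase gene, fell by 3.50 and Fscn1, the actin bundler gene, by 3.48 on the log2 scale. Magi1, Mlph and Ptprm did not pass without IV CD45.2 µ (edgeR adjusted p = 0.598, 0.0831 and 0.115). The TAµ libraries lay below those of CD45.2 µ without overlap for each gene of this group.

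St3gal5, the enzyme that makes the ganglioside GM3, had 20.8, 12.5 and 6.01 CPM in TAµ and 114, 144 and 31.2 CPM in CD45.2 µ (log2 fold change -2.76 ± 0.40; edgeR adjusted p = 0.00218), and was the only 1 of 18 tested ganglioside and glycan enzymes to pass. Without adjustment, 2 of the 18 were higher and 3 lower at a p under 0.05, against 409 and 492 of all 13339 genes tested. DESeq2 called 3 of the 18 and limma-voom 2. Csf1, which encodes a growth factor of microglia and macrophages, had 28.5, 8.45 and 25.5 CPM against 340.1, 130.2 and 29.7 CPM (-2.64 ± 0.53; adjusted p = 0.0413). By ICV its log2 difference was -0.22, against -3.57 by IV and -3.92 by ITL. Gpr84, a receptor for medium-chain fatty acids, had 16.8, 38.1 and 11.8 CPM against 103, 83.2 and 51.6 CPM (-2.0 ± 0.41; adjusted p = 0.0413). Egr1 was at 1789, 306 and 383 CPM against 3713, 1706 and 962 CPM (-1.61 ± 0.30; adjusted p = 0.0227), lower by each route although the ranges overlapped. It was the only one of 27 immediate-early genes to pass, and 2 of the 27 were lower and 0 higher at an unadjusted p under 0.05. Without IV CD45.2 µ, Csf1, Gpr84 and Egr1 were at -1.88, -1.50 and -1.73 and did not pass (adjusted p = 0.598, 0.351 and 0.128).

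Named after their values were seen, the remaining genes that fell were Lrrc3, Gem, Ppfia4, Cdkn1a, Fam102b, Mlxipl, Epha2, Soga1, Pag1 and Slc12a2, with log2 fold changes from -3.22 (Gem, a small GTPase gene) to -1.22 (Pag1, a membrane adaptor gene). Cdkn1a, the cell-cycle inhibitor p21, had 82.7, 49.4 and 36.4 CPM in TAµ and 382, 341.5 and 129 CPM in CD45.2 µ (-2.27 ± 0.38; edgeR adjusted p = 0.00818, and 0.166 without IV CD45.2 µ). CTR had 61.1 CPM, within the range of TAµ. Of the 40 cell cycle genes tested, 0 passed edgeR's test, DESeq2 or limma-voom. Without adjustment, 1 of the 40 was lower at a p under 0.05, against 492 of all 13339 genes tested.

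Ctse, which encodes the aspartic protease cathepsin E, had the largest fitted rise after Mpo among the 6 genes that rose and are not sex-linked. Its levels were 195, 204 and 255 CPM in TAµ and 1.24, 5.90 and 25.7 CPM in CD45.2 µ. The TAµ values were close together while those of CD45.2 µ ranged widely, and the log2 fold change was 4.14 ± 0.58 (edgeR adjusted p = 0.00197). Without ICV CD45.2 µ the fitted value was 6.47. In CD45.1 µ it had 209, 227 and 73.1 CPM. It was the only 1 of 35 tested lysosome and cathepsin genes to pass edgeR's test. Without adjustment, 8 of the 35 were higher and 2 lower at a p under 0.05, against 409 and 492 of all 13339 genes tested. DESeq2 called 3 of the 35 and limma-voom 2, where they called 195 and 73 of all genes. Ctsc, the dipeptidyl peptidase that activates granule proteases, missed the threshold at 1.09 ± 0.25 (log2 fold change; adjusted p = 0.0841), and Ctsl was at -0.68 ± 0.27 (adjusted p = 0.589).

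The macrophage receptor genes Mrc1 and Cd36 and the RNA-editing deaminase gene Apobec1 rose by smaller factors. Mrc1 had 1642, 1551 and 2226 CPM in TAµ and 410, 360 and 1514 CPM in CD45.2 µ, with the ICV pair nearest to each other (log2 fold change 1.49 ± 0.29; edgeR adjusted p = 0.0302). Cd36, a receptor for fatty acids and oxidised lipoproteins, had 176, 168 and 108 CPM against 51.9, 35.4 and 51.9 CPM (1.64 ± 0.31; adjusted p = 0.0232). Apobec1, a cytidine deaminase that edits RNA, had 371, 407 and 472 CPM against 153, 100.1 and 304 CPM (1.28 ± 0.26; adjusted p = 0.0418). The 3 libraries of each population did not overlap for any of these genes. Without IV CD45.2 µ, Mrc1, Cd36 and Apobec1 were at 1.21, 1.48 and 1.32 and did not pass (adjusted p = 0.448, 0.19 and 0.21). CTR had 160.3 CPM of Mrc1, 17.3 CPM of Cd36 and 77.7 CPM of Apobec1, below every TAµ library.

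**Figure D3:**
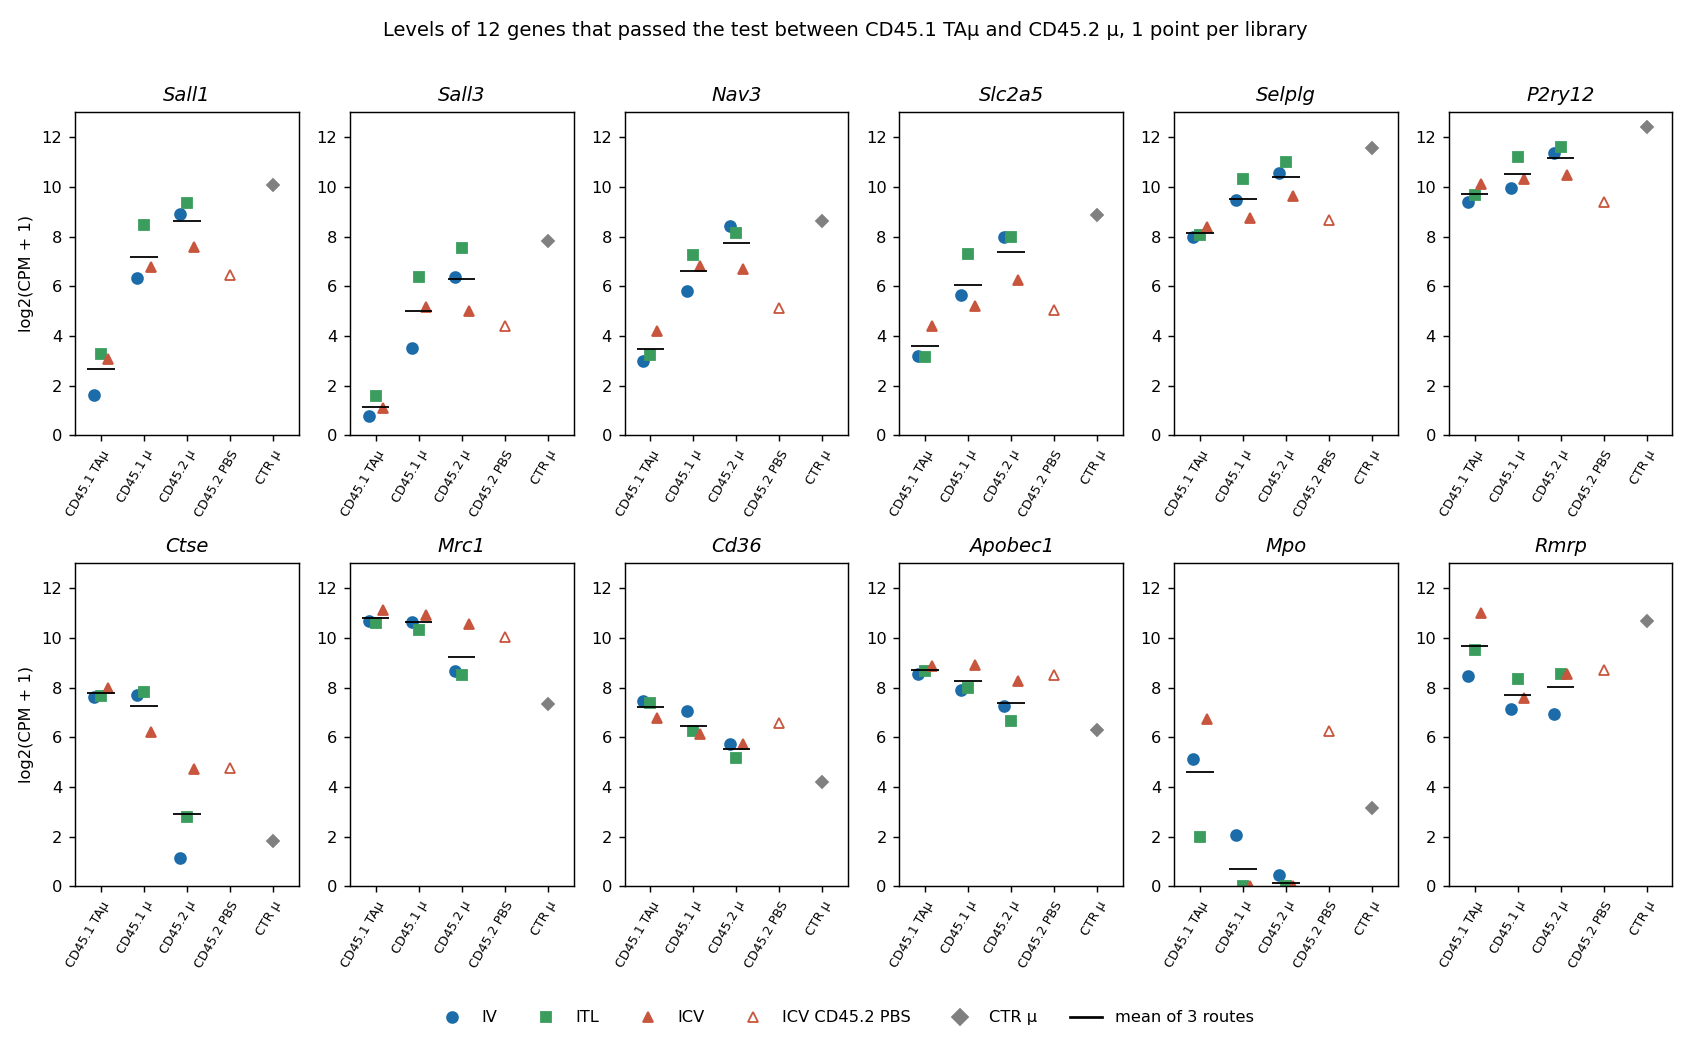
Levels of 12 genes that passed, as log2(CPM + 1) on the vertical axis, for CD45.1 TAµ, CD45.1 µ and CD45.2 µ (1 point per route, black line at the mean of 3) and for the single ICV CD45.2 PBS and CTR µ libraries. The 6 genes of the upper row were lower in all 3 TAµ libraries than in any CD45.2 µ library; in the lower row the same holds the other way round, with the exception of Rmrp, whose ranges overlapped.

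Lists of macrophage genes leaned upwards with few single genes passing. Of 26 tested genes of graft-derived brain macrophages 1 rose (Mrc1) and 24 had positive fitted values, with a median log2 fold change of 0.92. Their median log2 difference was 1.75 by IV, 1.60 by ITL and -0.12 by ICV. Of 21 border-associated macrophage genes 2 rose (Mrc1 and Cd36) and 16 were fitted higher (median 1.30). Over all genes tested 56.9% were fitted higher with a median of 0.10, and 0.075% passed as higher. These lists share members. At an unadjusted p under 0.05, 14 graft-derived and 11 border-associated genes were higher, and DESeq2 called 7 and 6. Over all 13339 genes tested, 409 were higher at that unadjusted threshold, and DESeq2 called 195, of which 74 were higher. Without IV CD45.2 µ, 0 genes of either list passed and their medians were 0.60 and 1.02. Without ICV CD45.2 µ, 12 of the 26 and 5 of the 21 passed, with medians of 1.57 and 1.34.

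Ms4a7, which marks blood-derived macrophages in brain, had 182, 296 and 201 CPM in TAµ and 45.5, 36.6 and 195 CPM in CD45.2 µ. It was higher by IV and ITL and level by ICV, and did not pass (log2 fold change 1.55 ± 0.40; edgeR adjusted p = 0.147). Apoe, the lipid carrier gene, had 16095, 28598 and 31135 CPM against 6146, 3965 and 21322 CPM (1.47 ± 0.41; adjusted p = 0.194). The lowest TAµ library lay within the range of CD45.2 µ. Ms4a6c was at 1.38 ± 0.31 (adjusted p = 0.0841) and Cyp4f18 at 1.19 ± 0.29 (adjusted p = 0.122), both with libraries that did not overlap. Adgre1, which encodes the macrophage marker F4/80, lay just outside the threshold (1.25 ± 0.26; adjusted p = 0.051) and was singled out after its value was seen.

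Antigen presentation genes were fitted higher with none past the threshold. Of 16 tested MHC class II genes 15 had positive fitted values, with a median log2 fold change of 0.81. Over all genes tested 56.9% were fitted higher, with a median of 0.10. By edgeR 0 passed, 5 were higher at an unadjusted p under 0.05, and DESeq2 called 4 and limma-voom 2. Of all 13339 genes tested 409 were higher without adjustment, and DESeq2 and limma-voom called 195 and 73. H2-Aa, an MHC class II chain gene, had 1305, 1630 and 1476 CPM in TAµ and 327, 414 and 1138 CPM in CD45.2 µ (1.39 ± 0.31; edgeR adjusted p = 0.0725). Cd74, the invariant chain gene, had 2910, 3004 and 3080 CPM against 1139, 746 and 2525 CPM (1.18 ± 0.29; adjusted p = 0.125). In both genes TAµ stayed within a narrow range above every CD45.2 µ library, and the ICV library of CD45.2 µ was the highest of its group. Of 36 interferon response genes 33 were fitted higher (median 0.61), 4 were higher at an unadjusted p under 0.05, and 0 passed edgeR's test, DESeq2 or limma-voom. The antiviral gene Bst2 was at 0.96 ± 0.39. The medians without IV CD45.2 µ were 0.49 for the MHC class II list and 0.33 for the interferon list, and without ICV CD45.2 µ 5 of the 16 MHC class II genes passed.

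Genes of disease-associated microglia and of lipid handling gave few calls. Of 27 tested disease-associated genes 0 rose and 1 fell (Csf1) by edgeR's test, while 9 were higher and 4 lower at an unadjusted p under 0.05. Of all 13339 genes tested, 409 were higher and 492 lower at that threshold. DESeq2 called 4 and limma-voom 3, and the median log2 fold change was 0.30. Trem2, the lipid-sensing receptor gene of that state, was at 0.30 ± 0.32, and Cd9, a tetraspanin gene, at -1.28 ± 0.32 (edgeR adjusted p = 0.124). Axl, a receptor for dying cells, had 773, 1004 and 1010 CPM in TAµ and 366, 233 and 774 CPM in CD45.2 µ (1.10 ± 0.29; adjusted p = 0.166). Of 29 lipid and cholesterol genes 1 rose, Cd36, which is also on the border-associated list. Without adjustment, 7 of the 29 were higher and 0 lower at a p under 0.05, and DESeq2 called 1 and limma-voom 2. Of 31 Alzheimer's disease risk genes 0 passed edgeR's test, DESeq2 and limma-voom each called 1, and 4 were higher and 4 lower at an unadjusted p under 0.05 (median -0.03, which turned positive without ICV CD45.1 TAµ). Of 21 purinergic and surface sensing genes 2 fell, P2ry12 and Gpr84, while 6 were lower and 1 higher at an unadjusted p under 0.05.

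**Figure D4:**
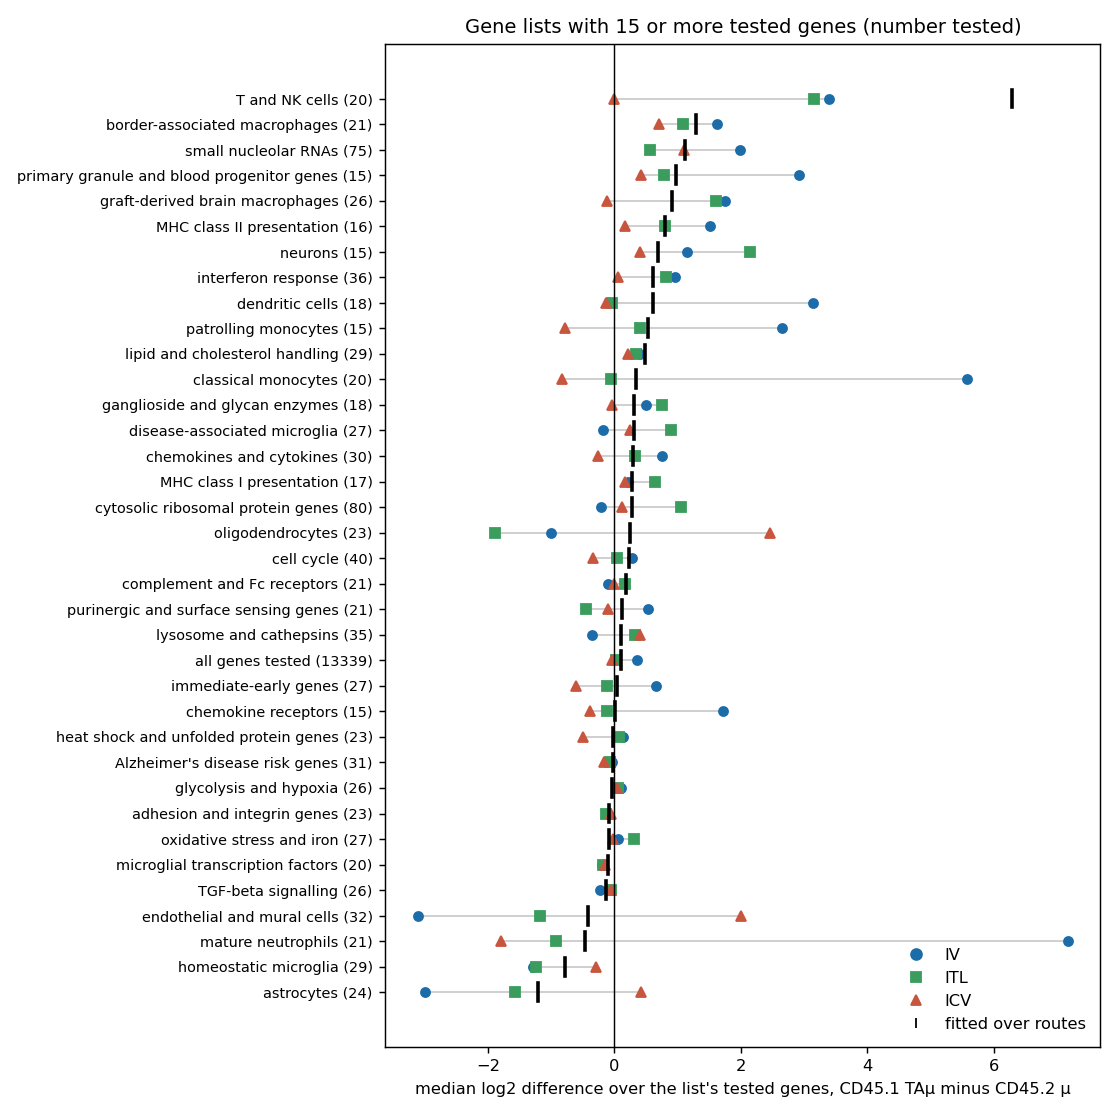
Median log2 difference (CD45.1 TAµ minus CD45.2 µ, horizontal axis) over the tested genes of each list with 15 or more of them, by route (coloured symbols) and as fitted over routes (black ticks), with all 13339 tested genes as 1 row for reference. Homeostatic microglia genes lie left of 0 by each route and border-associated macrophage genes right of it; the tick of the T and NK cell list rests on genes at 0 counts in most CD45.2 µ libraries and is not a measured fold.

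Mpo, the myeloperoxidase gene of neutrophil precursors, had the largest fitted rise of the 10. It was at 33.9, 2.93 and 106 CPM in TAµ and had in CD45.2 µ 5 counts by IV and 0 by ITL and ICV (log2 fold change 8.77 ± 1.43; edgeR adjusted p = 0.00871). With so few counts in CD45.2 µ the fitted size depends on the library left out, from 6.55 without ICV CD45.1 TAµ to 14.69 without IV CD45.1 TAµ. Elane, the neutrophil elastase gene, had 12.2, 0.902 and 31.2 CPM against 0, 0 and 0.411 CPM and did not pass (adjusted p = 0.147). Of 15 tested primary granule and blood progenitor genes, Mpo was the only one that passed edgeR's test. Without adjustment, 3 of the 15 were higher and 1 lower at a p under 0.05, against 409 and 492 of all 13339 genes tested. DESeq2 called 2 and limma-voom 0. In 5 of the 15 the libraries did not overlap and were higher in TAµ, against 6.45% of all genes tested. The summed level of that list was 236, 173 and 341 CPM in TAµ and 232, 205 and 210 CPM in CD45.2 µ. Of 21 tested mature neutrophil genes 0 passed by edgeR or DESeq2 and 1 by limma-voom, with 1 lower at an unadjusted p under 0.05. Their sum was 4260, 2066 and 1286 CPM against 488, 4847 and 3885 CPM, with 16 of the 24 listed genes at 0 in IV CD45.2 µ. That library had a count for 10477 of all 24411 genes. The part of other blood cells in the Mpo result was not tested.

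T and NK cell genes were low throughout, at sums of 67.7, 58.3 and 45.3 CPM in TAµ and 5.16, 6.52 and 31.0 CPM in CD45.2 µ over 31 genes. In CD45.2 µ 29, 25 and 19 of those genes were at 0, and in TAµ 1, 1 and 11. Of all 24411 genes, 10477, 13627 and 14668 had a count in CD45.2 µ, and 15492, 15485 and 13560 in TAµ. Of the 20 T and NK cell genes that were tested 0 passed edgeR's test, DESeq2 or limma-voom. Without adjustment, 3 of the 20 were higher at a p under 0.05, against 409 of all 13339 genes tested. Gzmb, the granzyme B gene, had 3.57, 3.95 and 4.39 CPM in TAµ and 0 counts in every CD45.2 µ library, which allows up to 0.218, 0.466 and 0.154 CPM, and did not pass (edgeR adjusted p = 0.622).

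Markers of other brain cells moved with the populations differently by route. Slc1a3, a glutamate transporter gene of astrocytes, had 7.40, 26.4 and 36.5 CPM in TAµ and 183, 192 and 59.4 CPM in CD45.2 µ (log2 fold change -2.57 ± 0.53; edgeR adjusted p = 0.0473). It was -1.94 without IV CD45.2 µ and did not pass (adjusted p = 0.351). It was the only one of 24 astrocyte genes to pass, and the part of astrocyte RNA in its result was not tested. Of the 24, 22 were fitted lower, against 5747 of the 13339 genes tested, and their median log2 fold change was -1.20. Without adjustment, 7 of the 24 were lower and 0 higher at a p under 0.05, against 492 and 409 of all genes tested. DESeq2 and limma-voom each called 1 astrocyte gene. CTR µ had 140.4 CPM of Slc1a3. The astrocyte list summed to 598, 706 and 1283 CPM in TAµ and 1974, 1683 and 1101 CPM in CD45.2 µ. Gfap, 1 defining gene of astrocytes, was low, at 0.957, 6.09 and 2.77 CPM against 15.2, 4.66 and 3.59 CPM. Oligodendrocyte genes summed to 843, 1447 and 3228 CPM against 1732, 1821 and 1312 CPM, and endothelial and mural genes to 264, 478 and 1547 CPM against 1143, 792 and 458 CPM. In both lists TAµ was the lower by IV and ITL and the higher by ICV. By edgeR, DESeq2 and limma-voom 0 genes of either passed, and at an unadjusted p under 0.05 there was 1 lower oligodendrocyte gene and 1 endothelial or mural gene in each direction. The part of RNA from these cells in the genes that fell was not tested. In bulk RNA, fewer cells of a type and less RNA per cell cannot be told apart.

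Rmrp, the RNA component of the mitochondrial RNA processing nuclease, rose with a log2 fold change of 1.73 ± 0.34 (edgeR adjusted p = 0.0291). It had 350, 734 and 2034 CPM in TAµ and 122, 375 and 371 CPM in CD45.2 µ, higher by each route although the ranges overlapped, and the fitted value was 1.08 without ICV CD45.1 TAµ. It did not pass without that library (adjusted p = 0.155) or without IV CD45.2 µ (adjusted p = 0.254). Small nucleolar RNAs, a class that polyadenylated RNA should hold little of, were fitted higher for 65 of 75 tested with a median of 1.12. By edgeR and limma-voom 0 passed, DESeq2 called 1, and 12 were higher at an unadjusted p under 0.05. Over all 13339 genes tested 56.9% were fitted higher, and 409 were higher without adjustment. They took 0.156%, 0.205% and 0.327% of counts in TAµ and 0.14%, 0.179% and 0.115% in CD45.2 µ. Rn45s, the pre-ribosomal RNA, took 8.95%, 23.5% and 25.1% against 8.67%, 15.7% and 21.8%. The part of RNA carry-over in the Rmrp result was not tested.

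Sex-linked genes separated the populations. Xist, the RNA that silences an X chromosome in female cells, had 11.6, 54.9 and 489 CPM in TAµ and 3790, 5097 and 6990 CPM in CD45.2 µ (log2 fold change -6.25 ± 0.62; edgeR adjusted p = 8.52e-05). Summed Y-linked transcripts (8 genes) were at 461, 316 and 210 CPM in TAµ and 43.1, 3.42 and 1.33 CPM in CD45.2 µ. Ddx3y, Uty, Eif2s3y and Kdm5d, Y-linked genes expressed in many tissues, all rose, by log2 fold changes of 4.57 ± 0.51, 4.56 ± 0.59, 4.52 ± 0.66 and 7.20 ± 1.10. Without IV CD45.2 µ those of Ddx3y, Uty and Eif2s3y were 6.72, 6.98 and 7.17, and without ICV CD45.2 µ that of Kdm5d was 11.82. TAµ held the more Y-linked RNA by each route, yet Xist was detected in all of its libraries. CTR had 0 CPM of Xist and 341 CPM of Y-linked RNA, and the PBS library 6093 and 0.0508 CPM. In this comparison the population, the CD45 allele and the sex of the cells cannot be told apart.

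**Figure D5:**
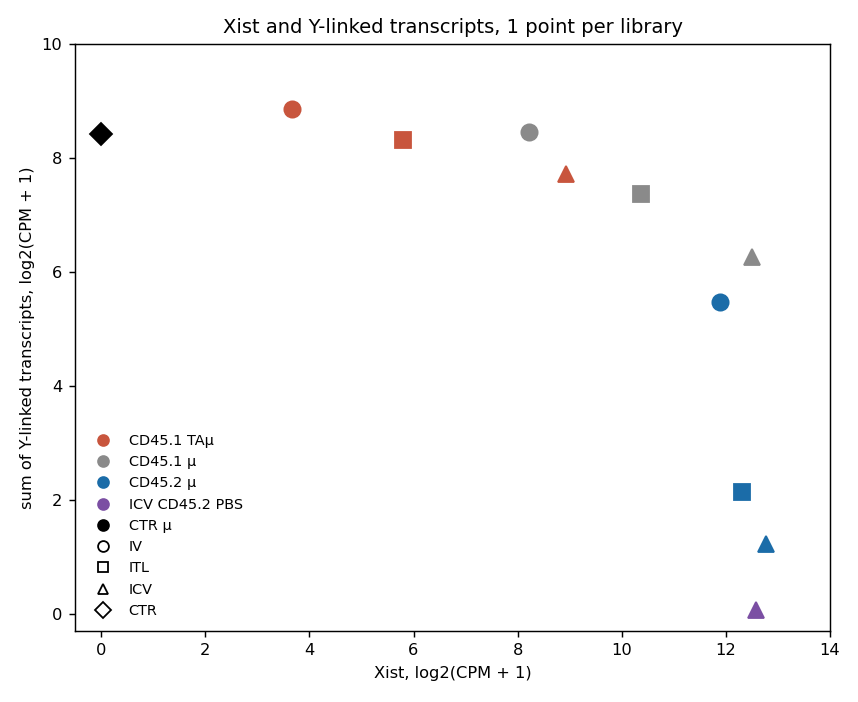
Level of Xist (horizontal axis) against the summed level of 8 Y-linked genes (vertical axis), both as log2(CPM + 1), 1 point per library, with colour for the population and shape for the route. TAµ points lie to the upper left with 11.6 to 489 CPM of Xist, CD45.2 µ points to the lower right with 3790 to 6990 CPM, CD45.1 µ points span 296 to 5786 CPM, and CTR lies at 0 CPM of Xist.

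Among genes that fell, the ICV pair was mostly the closest. ICV gave the smallest of the 3 route differences in 31 of the 36 genes that fell and in 36 of all 46. The share over all genes tested was not taken, and the 46 were chosen on these same differences. Over 8799 genes the SD of the log2 difference was 2.0 by IV, 0.856 by ITL and 0.871 by ICV. For those that fell, the median log2 difference was -3.85 by IV, -3.46 by ITL and -1.54 by ICV. For the 10 that rose it was 3.31, 4.69 and 4.09. With 1 library per population and route, a difference between routes has no test. Sall1 had log2 differences of -7.74, -6.21 and -4.64 by IV, ITL and ICV, and Sgce -5.02, -4.75 and -6.23, so the order of routes was not the same for every gene.

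The 35 genes that fell and are not sex-linked were set beside libraries that the fit did not use. CTR was above all 3 TAµ libraries in 34 of them (97.1%), against 26.3% of all genes tested, and above all 3 CD45.2 µ libraries in 22 (62.9%, against 24.3%). The PBS library was above all TAµ libraries in 27 of the 35 (77.1%, against 21.1% of all genes) and below all CD45.2 µ libraries in 29 (82.9%, against 16.5%). Of the 6 genes that rose and are not sex-linked, CTR was below all TAµ libraries in 4, as was PBS, against 25.5% and 21.4% of all genes. PBS was above all CD45.2 µ libraries in 5, against 23.6% of all genes. The genes were chosen for a difference between TAµ and CD45.2 µ, which makes a position on either side of one group likelier, and these placings carry no test.

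The same fit holds CD45.1 µ. In it 10 genes passed between CD45.1 TAµ and CD45.1 µ and 4 between CD45.2 µ and CD45.1 µ. These comparisons share libraries with the one described here. For Csf1, Egr1, Slc1a3 and Gem the log2 fold change of TAµ minus CD45.1 µ was -0.63, -0.25, -0.54 and -0.67, and none passed. For Sall1 and Sall3 it was -4.83 and -4.96, and both passed. Csf1, Egr1, Slc1a3 and Gem were picked for this after their values were seen. P2ry12 had 991, 2348 and 1289 CPM in CD45.1 µ by IV, ITL and ICV, and Mrc1 1599.8, 1283 and 1942 CPM. For Mrc1 these were near the TAµ levels of 1642, 1551 and 2226 CPM, and for P2ry12 they lay between those of TAµ and CD45.2 µ by each route.

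The count of genes that passed rested on single libraries. It was 5 without IV CD45.1 TAµ (Sall1, Sall3, Xist, Ddx3y and Uty), 17 without ITL CD45.1 TAµ, 26 without IV CD45.2 µ (of which 21 were among the 46), 89 without ICV CD45.1 TAµ and 159 without ICV CD45.2 µ. Sall1, Sall3 and Uty passed under each of the 21 alternatives computed, and no gene of the 46 changed sign where it was tested. Ctse passed in 20 of the 21, Cd36 in 13, Mrc1 in 10, P2ry12 and Slc1a3 in 9 and Apobec1 in 8.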

How the data were processed

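Polyadenylated RNA of sorted brain myeloid cells was sequenced, 1 library per population and route. The values the authors deposited are raw counts of reads for each gene symbol, a table for each library. Reads were aligned with STAR to mm39 (GRCm39), per the submitters' processing notes. Its version, the annotation, the strand setting and count filters were not given in the sources used here. The limit set by 0 counts (3 counts of a library total) covers counting error only, since reads carry no molecular identifiers.

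The 9 libraries of 3 populations by 3 routes were fitted in R 4.3.3 with edgeR 4.0.16, on route and population (4 residual degrees of freedom), and the contrast CD45.1 TAµ minus CD45.2 µ was taken. edgeR's filter (minimum count 10, minimum total 15) left 13339 of 24411 genes. Composition was scaled by TMM, and p-values of the quasi-likelihood F test were adjusted over all tested genes (Benjamini-Hochberg, 0.05). An SE is the absolute log2 fold change divided by the square root of F. Route differences are in log2 CPM with a prior count of 2. The biological coefficient of variation was 0.842. An interaction of route and population could not be tested. The CTR and PBS libraries entered no test of the main fit. All columns were assigned, with 0 left over.

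The members and gene lists were chosen with earlier results of these data known. Named genes were, among those that passed with 1 direction by all routes and a mean log2 CPM of 3 or more, the 15 each way with the largest fold change, up to 6 members of each list by p, and Ptprc, Itgam, Trem2, Cx3cr1, P2ry12, Tmem119, Sall1, Ms4a7, Apoe and Xist. Others are said to be named after their values were seen, apart from Spi1, Irf8, Csf1r and Gfap, which are defining markers. Some genes counted in the lists are not reported here. Over the 15 pairs of the 6 libraries, Spearman correlations ran from 0.819 to 0.972 and none differed as little as sampling noise (chi-square per degree of freedom at least 42.9). The fit was tested on simulated counts, where 17 of 84 calls were false, a share above the nominal rate. It recovered 2 of 67 changes of 1 on the log2 scale, 21 of 67 changes of 2 and 44 of 66 changes of 4. A gene or list without calls is therefore not shown to be unchanged. Alternatives were DESeq2 1.42.0, limma-voom 3.58.1, other scalings, filters and sample sets, and leaving out each library. Promoters come from RefSeq's GRCm38.p6 table and no coordinates of the files' build are printed.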

Additional observations from a re-analysis of the deposited data

Results flagged for a closer look

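For 3 gene lists the median log2 difference between CD45.1 TAµ and CD45.2 µ exceeded 1 in size in opposite directions by different routes. Further lists changed sign between routes but fell short of that cut. Among them were astrocytes (-3.00 by IV, -1.58 by ITL and 0.42 by ICV) and graft-derived brain macrophages (1.75, 1.60 and -0.12). With 1 library per population and route, the difference between routes was not tested. Mature neutrophil genes had a median log2 difference of 7.18 by IV, -0.92 by ITL and -1.79 by ICV, and IV CD45.2 µ held 0 counts for 16 of the 24 listed. That library had a count for 10477 of all 24411 genes. Oligodendrocyte genes were at -1.01 by IV, -1.89 by ITL and 2.47 by ICV. Endothelial and mural cell genes were at -3.11 by IV, -1.17 by ITL and 2.01 by ICV.

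In the ICV CD45.2 PBS library, which entered no test, 5 of the genes that rose in TAµ were more than 4 times the level of the CTR control. Ctse had 26.4 CPM there against 2.60 CPM in CTR. Mpo had 75.7 CPM against 7.97 CPM, while the ICV CD45.2 µ library had 0 counts of it. For Mrc1 the values were 1043 and 160.3 CPM, for Cd36 94.1 and 17.3 CPM, and for Apobec1 366 and 77.7 CPM.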

How the results depend on the processing

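All 46 genes kept their sign under each of the 21 alternatives in which they were tested, and Sall1, Sall3 and Uty passed in all 21. The number of genes that passed (46, with 10 higher and 36 lower) was within 1.5 times under DESeq2's size factors, library totals alone, totals without Rn45s and small nucleolar RNAs, and all 11 libraries for the total (64), although that setting gave 16 higher. It was 68 with no filter (18 higher), 25 with a filter of 10 CPM in 3 libraries (6 and 19), 195 with DESeq2 (74 and 121), 73 with limma-voom and quality weights (22 higher), and 22 with the legacy quasi-likelihood fit (6 and 16). It was 29 with no route term (6 and 23), 22 with the 6 libraries alone (5 and 17), and 31 (6 higher) without the 2 libraries in which the fewest genes had a count, those of CD45.2 µ by IV and of CD45.1 µ by ICV. The filters and sample sets change the genes or libraries tested. DESeq2, limma-voom and the legacy fit tested the same 13339 genes in the same 9 libraries, and the cause of their shifts was not tested. Leaving out 1 library gave 5 to 159 genes, 2 to 68 higher and 3 to 91 lower. The share called higher was 21.7% with all 9 libraries and 42.8% without ICV CD45.2 µ. Ctse's fitted log2 fold change ran from 3.46 (without IV CD45.2 µ) to 6.47 (without ICV CD45.2 µ), that of Kdm5d from 6.35 to 11.82 and that of Csf1 from -3.39 to -1.88. The median changed sign under at least 1 alternative in 24 of 42 gene lists, in up to 12 alternatives (oxidative stress and iron). It kept its sign in the other 18, among them homeostatic microglia, graft-derived and border-associated macrophages, MHC class II, interferon response, TGF-beta signalling and astrocytes. No paired analysis was possible by animal because neither animals nor replicates are numbered in the labels; route was a term of the fit. Depth limits the genes with few counts in 1 population, such as Mpo and Kdm5d, whose fold sizes are poorly set.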
